A study of Mus musculus with 20 samples.

Results

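To describe what remained changed in the cerebellum of SCA7 mice after AAV-shA4 treatment, the 5 AAV-shA4-treated SCA7 libraries of the late time point were compared with the 4 libraries of untreated wild-type (WT) mice, which are 9 of the 20 libraries of the series. They are all the libraries whose labels give these groups. The SCA7 mice are knock-in mice on the C57BL/6J strain that carry 1 Atxn7 allele coding for 140 glutamines and 1 coding for 5 (140Q/5Q), and the WT mice are of the same strain. AAV-shA4 is an adeno-associated virus of the PHP.eB serotype, injected behind the eye, that expresses the shRNA A4 against the CAG repeat from an H1 promoter together with eGFP from a CMV promoter. The WT mice received saline and no virus, so the genotype and the virus cannot be told apart in this comparison. For reference, the values of 5 SCA7 mice given the scrambled control AAV-shSCR, which share the WT mice, are given beside it. So are those of an earlier set labelled 9 weeks, with 3 WT mice that received AAV-shA4 and 3 untreated WT mice. By the methods of the study, mice called untreated received saline. The late mice are labelled 25 weeks, and the label does not say from which day these weeks run. The paper gives the sequenced late WT and AAV-shSCR-treated mice as males, and the AAV-shA4-treated SCA7 mice that it weighed as males too. Each library holds the polyadenylated RNA of 1 cerebellum, so the p-values measure the spread between mice.

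Spinocerebellar ataxia type 7 is a polyglutamine disease caused by an expanded CAG repeat in the gene of ataxin-7, a subunit of the transcriptional co-activator complex SAGA. Purkinje cells (PCs), the only output neurons of the cerebellar cortex, are among the neurons most affected. They receive excitatory input from the parallel fibres of granule cells and from climbing fibres, and glutamate signals in their dendrites through phospholipase C and the IP3 receptor to release stored calcium. Interferons are cytokines of the antiviral response, and the genes they induce include sensors of foreign RNA and the MHC class I molecules that present peptides at the cell surface.

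The reads counted on genes ran from 31465586 to 44708557 with AAV-shA4 and from 39036803 to 54570503 in WT mice. Levels are given in CPM, the counts of a gene over 1000000 counted reads, scaled by edgeR's TMM factors. AAV-shA4 replicate 1 and WT replicate 1 stood apart together in several lists, among them the forebrain and cerebellar nuclei lists, which mark tissue outside the cerebellar cortex. The mean over the 8 forebrain genes tested of log2(CPM + 0.1), relative to the WT mean, was 0.59 and 0.70 in these libraries, against −0.50 to −0.0037 in the other AAV-shA4-treated mice and −0.35 to −0.11 in the other WT mice. The list of the cerebellar nuclei behaved alike, with 0.36 and 0.63 in the same libraries. So did the families of GABA-A receptors (0.41 and 0.40) and voltage-gated sodium channels (0.38 and 0.36), which are not lists of a tissue. What set these libraries apart was not tested. Without both libraries, a choice made after seeing the data, the median log2 fold change against WT mice turned from −0.13 to 0.13 in the forebrain list and from −0.092 to 0.024 in the cerebellar nuclei list. It moved from −0.57 to −1.20 for the choroid plexus, from 0.04 to 0.11 for vascular genes and from 0.081 to 0.13 for microglia. The genes of the choroid plexus, the tissue that makes cerebrospinal fluid, summed to 81.4 to 3536 CPM with AAV-shA4 and 1161 to 4148 CPM in WT. Of the 16 choroid plexus genes tested none was called either way in edgeR's test, and 0 had an unadjusted p under 0.05, which 26.6% of all genes tested reached. Of the 16 Hox genes listed for the brainstem 1 had enough reads to be tested. The labelled tissue was borne out by the defining genes of PCs and granule cells, which summed to at least 14016 CPM and 9028 CPM in every mouse of both groups.

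Atxn7 (ENSMUSG00000021738, GRCm38 chr14:13961440-14107302, plus strand) carries the mutation and is the target of the shRNA. Its level was 44.7, 48, 50.1, 47.9 and 52.1 CPM with AAV-shA4 and 46, 50.6, 49.7 and 49.1 CPM in WT. The groups overlapped, with means of 48.5 CPM (± 2.75, SD of 5 mice) and 48.9 CPM (± 1.99, SD of 4 mice). An exact two-sided permutation test on log2(CPM + 0.1) gave p = 0.841, where 5 against 4 mice can give a p no smaller than 0.0159. The log2 fold change was −0.0089 (SE 0.049, adjusted p = 0.934 by edgeR). Gene counts do not separate the mutant from the normal allele. In SCA7 mice given AAV-shSCR the mean was 49.9 CPM (± 2.9, SD of 5 mice).

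Of the protein-coding genes, 14862 passed the filter on low counts in the late libraries and were tested. P-values came from the quasi-likelihood F test of edgeR, fitted over the 14 late libraries and adjusted by the method of Benjamini and Hochberg over the genes tested. A gene counts as called at an adjusted p under 0.05 together with a change of more than 1.3-fold up or down. These are also the limits of the study. At these limits 513 genes, 3.45% of those tested, differed between AAV-shA4-treated SCA7 mice and WT mice. Of these, 175 rose (1.18% of all genes tested) and 338 fell (2.27%). The adjusted p alone was passed by 2018 genes (13.6%), and an unadjusted p under 0.05 was reached by 3950 genes (26.6%). In 446 of the 513 called genes the 5 treated mice lay all above or all below the 4 WT mice, a separation found in 13.4% of all genes tested. The changes were mostly small, since 22 genes rose and 36 fell more than 2-fold. The median log2 fold change of all genes tested was 0.0061. Of the called genes, 99 belong to at least 1 of the 44 gene lists described here and 414 to none.

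The largest decreases were seen in genes with low levels and varied functions. Kcnh3, which encodes a voltage-gated potassium channel, had 2.89, 2.71, 2.15 and 1.92 CPM in WT and 1.07, 0.445, 0.393, 0.544 and 0.355 CPM with AAV-shA4. It fell 4.23-fold (log2 fold change −2.08, SE 0.30, adjusted p = 0.00016 by edgeR), and AAV-shA4 replicate 1 lay above the other treated mice. Myo15, an unconventional myosin known from the hair cells of the inner ear, was at 6.69, 8.09, 9.58 and 8.18 CPM in WT and 2.3, 2.17, 1.85, 1.86 and 1.96 CPM with treatment. The groups were far apart, and the gene fell 3.99-fold (SE 0.14 on the log2 scale, adjusted p = 5.05e-08). Car9, a carbonic anhydrase of the cell surface, was at 2.09 CPM (± 0.332, SD of 5 mice) against 8.34 CPM (± 1.16, SD of 4 mice), a 3.97-fold decrease (adjusted p = 2.82e-08 by edgeR). Ostn, which encodes the secreted peptide osteocrin, fell 3.29-fold, and Chrnb4, a subunit of nicotinic acetylcholine receptors, fell 2.98-fold with the widest spread of these genes, from 0.262 to 1.76 CPM among the treated mice.

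Th encodes tyrosine hydroxylase, the rate-limiting enzyme of catecholamine synthesis, which some PCs express. The WT mice had 17.2, 18.8, 12.5 and 19.97 CPM and the AAV-shA4-treated mice 5.76, 4.68, 6.18, 8.14 and 4.88 CPM. No treated mouse reached the lowest WT mouse, and the log2 fold change was −1.53 (SE 0.16, adjusted p = 6.03e-06 by edgeR). The same was true of Muc3a, a membrane-bound mucin (4.89 CPM (± 0.622, SD of 5 mice) against 13.6 CPM (± 1.3, SD of 4 mice), adjusted p = 1.74e-08). Rasal1, which switches off Ras, fell 2.67-fold and Mdfi, an inhibitor of myogenic transcription factors, 2.57-fold, while Rmi2, a subunit of a DNA repair complex, fell 2.49-fold. In none of these 10 genes did AAV-shA4 differ from AAV-shSCR at the adjusted p, and the largest difference between them was that of Ostn (0.379 CPM (± 0.108, SD of 5 mice) with AAV-shSCR and 0.623 CPM (± 0.0693, SD of 5 mice) with AAV-shA4). Between the SCA7 groups the log2 fold change of Ostn was 0.72 (SE 0.20, adjusted p = 0.483 by edgeR).

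The largest increases included receptors and enzymes of immune cells. Il12rb1, a subunit of the receptors for IL-12 and IL-23, was at 1.61, 2.88, 1.26, 1.63 and 1.75 CPM with AAV-shA4 and 0.643, 0.375, 0.679 and 0.364 CPM in WT. AAV-shA4 replicate 2 was the highest, and all treated mice were above all WT mice (log2 fold change 1.80, SE 0.34, adjusted p = 0.00165 by edgeR). Il3ra, the alpha subunit of the IL-3 receptor, rose 2.2-fold (adjusted p = 9.9e-05), and Zap70, a kinase of T cell receptor signalling, rose 2.01-fold (adjusted p = 0.00161). Ada, the adenosine deaminase, rose 2.39-fold (adjusted p = 0.000639). Outside the immune system, Kcnb2, which encodes the potassium channel Kv2.2, was at 19.3, 20.4, 20.5, 16.4 and 19.4 CPM against 11, 10.5, 7.28 and 7.71 CPM. It rose 2.1-fold without overlap (SE 0.15 on the log2 scale, adjusted p = 0.000151). Tmc3, of the family of transmembrane channel-like proteins, rose 2.07-fold, and Plin4, a protein of lipid droplets, 2.0-fold. The other 3 of the 10 largest increases, H2-Q7, H2-Q6 and Ifi27l2a, belong to the interferon and MHC lists described further on.

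**Figure D1:**
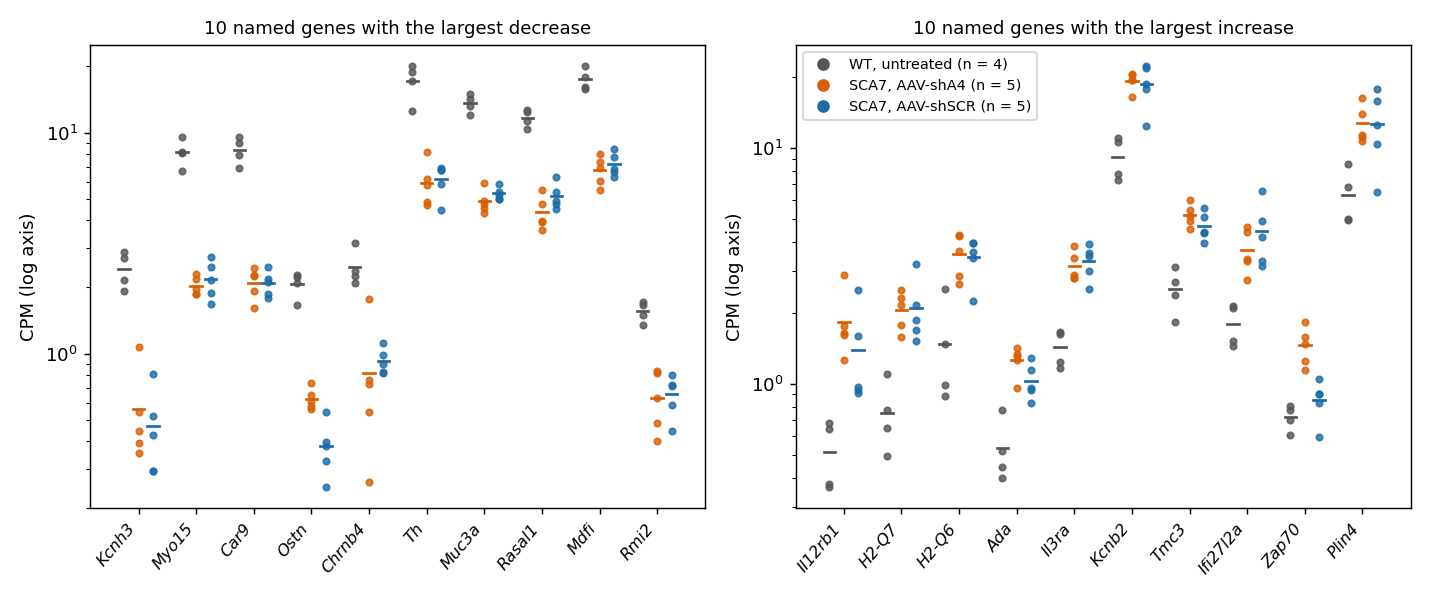
Level of the 10 named genes with the largest decrease (left) and the largest increase (right) in AAV-shA4-treated SCA7 mice against WT mice, in CPM on a log axis. Points are mice and bars are group means of 4 WT, 5 AAV-shA4-treated and 5 AAV-shSCR-treated mice. WT points lie above all AAV-shA4 points on the left and below all of them on the right, which the choice of the genes required.

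Of all lists the PC genes held the most decreases. Of the 40 genes of the PC list, all of them tested, 26 fell and 1 rose, where 2.27% of all genes tested fell and 1.18% rose. The median log2 fold change of the list was −0.44, against 0.0061 for all genes tested. Without the fold limit 36 of the 40 genes were lower at the adjusted p, which 13.6% of all genes tested passed in either direction. In 36 genes the treated mice lay wholly apart from the WT mice, as they did in 13.4% of all genes tested. In these bulk samples, fewer PCs and less RNA of these genes per PC cannot be told apart.

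Fam107b showed the largest change of the list, at 106, 99.95, 123, 113 and 95.9 CPM with AAV-shA4 and 199.6, 225, 210.4 and 206 CPM in WT (log2 fold change −0.97, SE 0.057, adjusted p = 1.29e-08 by edgeR). Grid2ip, which encodes delphilin, a scaffold of the parallel fibre synapse, was at 57.9, 64, 62.1, 63.5 and 63.7 CPM against 107, 124, 111 and 117 CPM. The 5 treated mice lay close together at 62.2 CPM (± 2.54, SD of 5 mice), and the gene fell 1.84-fold (adjusted p = 7.14e-09). Plcb3, a phospholipase C, fell 1.78-fold, from 93.9 CPM (± 6.1, SD of 4 mice) to 52.8 CPM (± 3.34, SD of 5 mice) (adjusted p = 1.71e-08). Rgs8, a regulator of G protein signalling, fell 1.68-fold, from 1698 CPM (± 104, SD of 4 mice) to 1010.1 CPM (± 45.7, SD of 5 mice) (adjusted p = 1.71e-08). Pcp4, which modulates calmodulin, fell by 0.58 and Pcp2, a classical PC marker, by 0.46 on the log2 scale. The member that rose was Gprin3, which encodes a G protein-regulated inducer of neurite outgrowth, with a log2 fold change of 0.56 (SE 0.088, adjusted p = 0.000333 by edgeR). The other 3 members missed the adjusted p, namely Sycp1 (−0.24), Plcb4 (−0.12) and Foxp2 (0.014 on the log2 scale).

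The study singles out 8 PC genes as restored by AAV-shA4, meaning back under its fold limit or no longer deregulated against WT mice. They were chosen on these samples, so their direction is not independent evidence. Here, unlike in that count, 6 of the 8 were still called lower against WT mice. All 8 passed the adjusted p, with a median log2 fold change of −0.39. Calb1, the calcium buffer calbindin, was at 789, 873, 959, 943 and 812 CPM with AAV-shA4 and 1095, 1251, 1141 and 1158 CPM in WT, a log2 fold change of −0.41 (SE 0.06, adjusted p = 0.000188 by edgeR). Itpr1, the IP3 receptor of PCs, was at 3461 CPM (± 217, SD of 5 mice) against 4513 CPM (± 215, SD of 4 mice) (log2 fold change −0.38). Kcnma1, the pore of the calcium-activated BK channel, changed by −0.39, Htr1b, a serotonin receptor, by −0.39, Mtss1, which shapes dendritic spines, by −0.39 and Scn4b, a sodium channel subunit, by −0.39 on the same scale. The decreases of Kcnip1 (−0.35) and Abr (−0.31) stayed under the fold limit. The limit corresponds to 0.38 on the log2 scale, just under the values of the 6 called genes, and each of the 6 came under it when 1 mouse was left out. Calb1 (−0.37), Itpr1 (−0.35) and Kcnma1 (−0.37 and −0.36) did so without AAV-shA4 replicate 1 or WT replicate 2, Htr1b (−0.37 and −0.38) without AAV-shA4 replicate 2 or WT replicate 1, Mtss1 (−0.37) without AAV-shA4 replicate 5 or WT replicate 2, and Scn4b without AAV-shA4 replicate 1 (−0.37) or 4 (−0.38) or WT replicate 1 (−0.31). With AAV-shSCR all 8 were called lower, with a median of −0.44. Between the SCA7 groups the median difference of the 8 was 0.058. By edgeR 2 of them were higher with AAV-shA4 at an unadjusted p under 0.05 and 0 lower, where 8.22% of all genes reached that p. The smallest adjusted p of the 8 was 0.325.

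**Figure D2:**
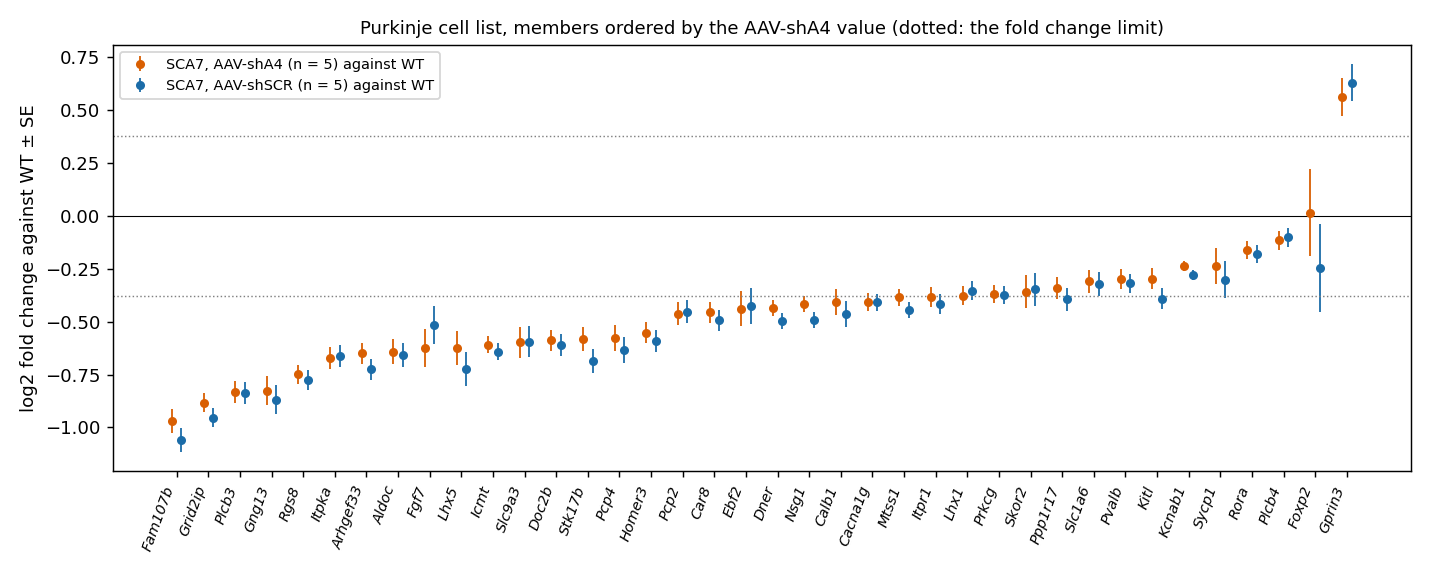
Log2 fold change against WT of 38 of the 40 genes of the PC list in AAV-shA4-treated and in AAV-shSCR-treated SCA7 mice, with its SE, ordered by the AAV-shA4 value. Both comparisons share the 4 WT mice, the dotted lines mark the fold change limit, and the values run from −0.97 for Fam107b to 0.56 for Gprin3 with AAV-shA4.

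The decreases covered the pathway that leads from glutamate through G proteins and phospholipase C to the IP3 receptor of the calcium store. Of the 20 genes of this list 11 fell and 0 rose at the limits (15 were lower at the adjusted p), with a median log2 fold change of −0.40. Of all genes tested 2.27% fell at the limits and 13.6% passed the adjusted p either way. Gng13, a G protein subunit, fell by 0.83 and Homer3, a scaffold that links receptors to the store, by 0.55 on the log2 scale. Dagla, which makes the endocannabinoid 2-AG, was at 118, 118, 122, 127 and 118 CPM against 194, 199, 186 and 194 CPM. This is a 1.61-fold decrease with a small spread in both groups (adjusted p = 1.11e-08). Inpp5a and Itpka, enzymes that remove IP3, fell by 0.47 and 0.67. Among the 23 genes of calcium buffers, pumps and stores 4 fell and 1 rose (median −0.11). The pumps of the endoplasmic reticulum Atp2a3 (279 CPM (± 19.2, SD of 5 mice) against 409 CPM (± 30.7, SD of 4 mice)) and Atp2a2 (1202 CPM (± 67.6, SD of 5 mice) against 1627 CPM (± 59.9, SD of 4 mice)) were among those that fell.

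At the synapses of parallel and climbing fibres, 5 of 29 genes fell, 0 rose and the median was −0.11. All 5 are known from the postsynaptic side, namely Grid2ip, Homer3, Shank2 (−0.47), Baiap2 (−0.40) and Mtss1. Cbln1, a synaptic ligand secreted by granule cells, was lower at the adjusted p but under the fold limit (−0.31, SE 0.058, adjusted p = 0.00161 by edgeR). Aldoc, Plcb3, Kctd12 and Gabbr2 mark the zebrin-positive stripes of PCs, and all 4 fell, with Kctd12 at 165.6 CPM (± 12.6, SD of 5 mice) against 290.2 CPM (± 24.2, SD of 4 mice). The median of the 6 zebrin-positive genes was −0.57, and that of the 3 zebrin-negative genes, of which 2 fell, among them Ebf2, was −0.44. The difference between these lists was not tested.

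Among 78 potassium channel genes, which set how neurons fire, 7 fell and 1 rose, with a median of −0.13. Among all genes tested 2.27% fell and 1.18% rose, 13.6% passed the adjusted p and 26.6% had an unadjusted p under 0.05. AAV-shA4 replicate 1 (0.083) and WT replicate 1 (0.22) had the highest mean of their groups over this list, and without them 7 genes fell and the median was −0.07. Besides Kcnh3 and Kcnma1, Kcnk13, which encodes a tandem pore channel, was at 4.49, 2.67, 3.79, 3.68 and 3.4 CPM against 6.84, 6.48, 6.95 and 6.23 CPM. It fell 1.84-fold without overlap (SE 0.13 on the log2 scale, adjusted p = 0.000198 by edgeR). Kcna6 changed by −0.43 and the only increase was that of Kcnb2. Of 23 voltage-gated calcium channel genes 2 fell, the T-type channel Cacna1g (−0.41) and the auxiliary subunit Cacnb2 (−0.47). Cacna1g stayed under the fold limit without WT replicate 2 (−0.37). In this family 3 genes rose, among them Cacna1e, the R-type channel, with 300.1, 334, 322, 308 and 341 CPM against 234, 244, 252 and 239 CPM (log2 fold change 0.41, SE 0.058, adjusted p = 0.000134 by edgeR). Of 11 voltage-gated sodium channel genes Scn4b fell, of 18 ionotropic glutamate receptor genes Grik1 fell (−0.50), and of 15 GABA-A receptor genes none was called in edgeR's test, with 2 lower at the adjusted p and 3 under an unadjusted p of 0.05.

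After the PC lists, that of oligodendrocytes, the myelinating cells, held the most decreases of the cell type lists. Of their 26 genes 6 fell, 0 rose and 13 were lower at the adjusted p, with a median of −0.22. The shares of all genes tested were 2.27% that fell, 13.6% at the adjusted p and 26.6% at an unadjusted p under 0.05. Car2, a carbonic anhydrase, was at 153, 121, 142, 142 and 139.8 CPM with AAV-shA4 and 225, 209, 221 and 222 CPM in WT. It fell 1.57-fold without overlap (SE 0.058 on the log2 scale, adjusted p = 8.46e-07 by edgeR). Ugt8a and Fa2h, enzymes of the myelin lipid galactosylceramide, fell by 0.62 and 0.53 on the log2 scale. Other genes of the list were near 0, such as Mog (0.032), Cnp (0.036) and Myrf (−0.054). Among 14 genes of oligodendrocyte precursors none was called in edgeR's test, with 3 at the adjusted p and 5 at an unadjusted p under 0.05. Sox8, a transcription factor of this lineage, had a value of 0.33 (SE 0.064) under the fold limit.

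The other neurons and the glia of the cortex showed few calls. None of 20 granule cell genes was called in edgeR's test, with a median of −0.10. At the adjusted p 6 of them were lower and 2 higher, where 13.6% of all genes tested passed either way. An unadjusted p under 0.05 was reached by 15 of the 20, against 26.6% of all genes tested, so small changes were more frequent in this list. Of 20 interneuron genes 2 fell, with a median of −0.10. They are Eomes, which marks unipolar brush cells and dropped from 31.1 CPM (± 6.28, SD of 4 mice) to 14.9 CPM (± 3.64, SD of 5 mice), and Grm2, a receptor of Golgi and unipolar brush cells (22.7 CPM (± 1.2, SD of 5 mice) against 32.3 CPM (± 1.39, SD of 4 mice)). Bergmann glia and astrocytes had 1 call in 20 genes, Npr1, the receptor of natriuretic peptides, which fell 1.61-fold (adjusted p = 4.71e-06 by edgeR), and 9 genes lower at the adjusted p. Gfap, the marker of gliosis, was at 169.5, 159, 174, 165 and 154 CPM with AAV-shA4 and 218, 186, 206 and 191 CPM in WT. All treated mice were below all WT mice, but the change of −0.29 (SE 0.065, adjusted p = 0.00727) was under the fold limit. In the cerebellar nuclei list 2 of 12 genes fell, among them Scn4b, which PCs express as well, and without AAV-shA4 replicate 1 and WT replicate 1 there was 1. Of the 8 forebrain genes tested 1 fell, Ppp1r1b, the phosphatase regulator DARPP-32 (−0.46), which PCs express too.

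**Figure D3:**
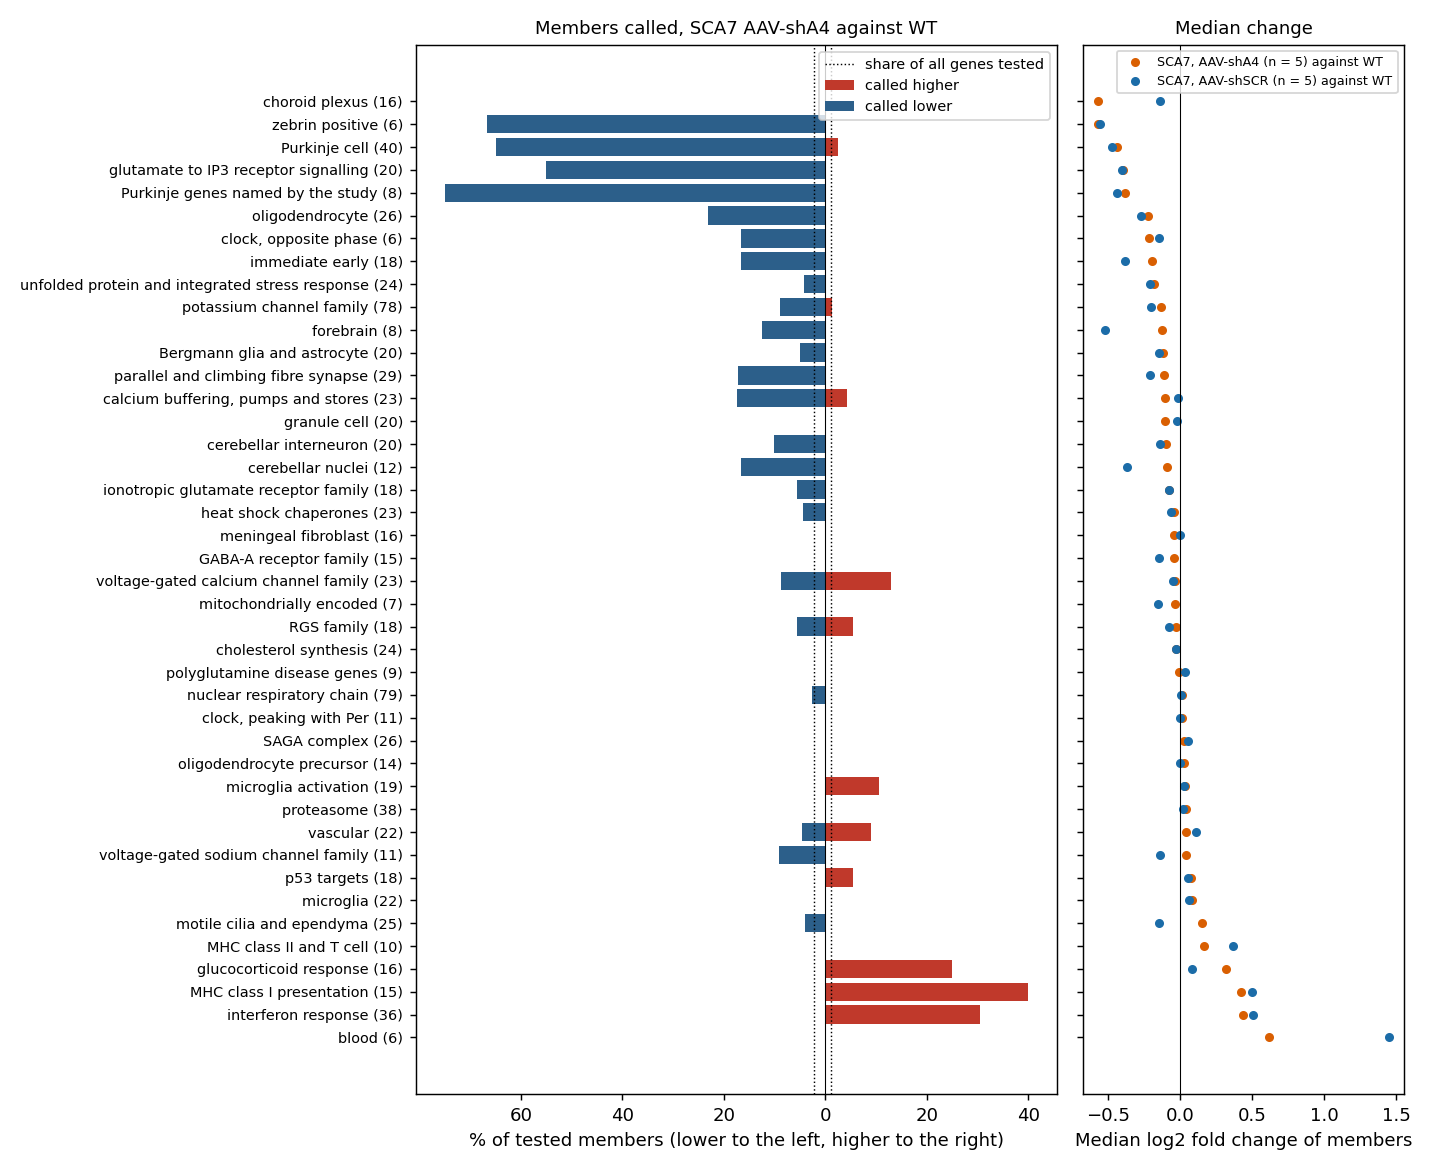
Share of the tested members of each gene list called higher (right) or lower (left) in AAV-shA4-treated SCA7 mice against WT mice, with the number tested in parentheses and the shares over all genes tested, 1.18% and 2.27%, as dotted lines. The right panel gives the median log2 fold change of each list with AAV-shA4 and with AAV-shSCR against the same WT mice, from −0.57 for the choroid plexus to 0.61 for blood with AAV-shA4. Lists with fewer than 5 tested genes are not drawn.

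Interferon-response genes rose. Of 36 genes tested 11 rose and 0 fell, with a median log2 fold change of 0.43. Irf7, the transcription factor that amplifies the interferon response, was at 10.3, 9.96, 8.68, 8.94 and 8.63 CPM with AAV-shA4 and 3.65, 4.18, 4.92 and 7.06 CPM in WT. The highest WT mouse was below the lowest treated mouse, and the gene rose 1.89-fold (SE 0.20 on the log2 scale, adjusted p = 0.00623 by edgeR). Ifi27l2a, an interferon-induced gene, rose 2.07-fold and its relative Ifi27 1.58-fold. Xaf1, which promotes apoptosis, rose 1.52-fold and Eif2ak2, the kinase PKR that senses double-stranded RNA, 1.47-fold. Some classical members did not pass the test, such as Ifit3 (0.17, SE 0.23), Isg15 (0.34, SE 0.21) and Mx1 (−0.33, SE 0.34). These 3 genes were named after their values were seen. The number called fell to 7 without AAV-shA4 replicate 2, the treated mouse with the highest mean over the list.

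Genes of MHC class I presentation rose with them, 6 of 15 and 0 lower, with a median of 0.42. H2-K1, a classical class I heavy chain, was at 53.4, 60.1, 43.1, 47.1 and 50.4 CPM against 31.4, 33.8, 31.2 and 31.7 CPM, a 1.59-fold increase without overlap (adjusted p = 0.000773 by edgeR). H2-Q7 rose 2.76-fold, H2-Q6 2.43-fold and H2-Q4 1.82-fold, but these genes are near-identical copies and their reads may be split between them, so each value is uncertain. B2m, the light chain shared by all class I molecules, changed by 0.42 (SE 0.10), and Nlrc5, the transactivator of class I genes, by 0.98 (SE 0.31), and both were called. In the earlier AAV-shA4-treated WT mice the median of this list was 0.43 against untreated WT mice and that of the interferon list 0.09. There 7 of 14733 genes were called higher (0.0475%), and none of the 15 and 35 list genes tested was called by edgeR, with 5 and 3 under an unadjusted p of 0.05, which 11.1% of all genes tested there reached. In that test H2-Q7 had a log2 fold change of 1.52 (SE 0.56, adjusted p = 0.364). With AAV-shSCR at the late time point 17 interferon genes (median 0.50) and 8 MHC class I genes (median 0.50) were called higher against the same WT mice, where 1.35% of all genes tested were.

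Markers of immune cells were measured beside these lists. None of 22 microglia genes was called by edgeR (median 0.081, summed level 362 to 472 CPM with AAV-shA4 and 359.8 to 409 CPM in WT), and 2 had an unadjusted p under 0.05. In this comparison 26.6% of all genes tested reached that p. Of 19 activation genes of microglia 2 rose, Lgals3 (1.53-fold, adjusted p = 0.0212 by edgeR) and Cst7, at 0.293 CPM (± 0.109, SD of 5 mice) against 0.0961 CPM (± 0.0251, SD of 4 mice). Neither passed the adjusted p without WT replicate 2 (log2 fold changes of 0.60 and 1.45) or 3 (0.60 and 1.5), Lgals3 did not without WT replicate 1 (0.51) and Cst7 did not without AAV-shA4 replicate 2 (1.35) or WT replicate 4 (1.44). Of 18 genes of MHC class II and T cells 10 had enough reads, 0 were called in edgeR's test and 1 had an unadjusted p under 0.05, and their summed level was 25.2 to 38.6 CPM against 25.6 to 32.8 CPM. In the earlier AAV-shA4-treated WT mice 8 genes of this list were tested, with a median of 1.58 against untreated WT mice. There 0 were called higher by edgeR and 5 had an unadjusted p under 0.05, which 11.1% of all genes reached. The summed level was 30.1 to 137.8 CPM against 19.9 to 25.9 CPM. The part of immune cells in the interferon and MHC values was not tested.

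A motif of interferon-responsive promoters, GAAANNGAAA on either strand, was searched in the windows from 250 bases before to 30 bases after the gene starts of RefSeq (GRCm38.p6). It was present in 3.28% of all 32851 windows. Counted by gene, 398 of the 11576 tested genes with a window (3.44%) hold it in at least 1 window. Of the 26 tested interferon genes that have a window 14 hold it, 2 of the 8 that were called and 12 of the 18 that were not, and 1 of the 5 called MHC class I genes with a window holds it. The windows of the called genes that hold the motif are shown 5′ to 3′ with the motif in capitals, for Ifitm3, a membrane protein that blocks the entry of viruses (chr7:141010715-141010994, minus strand), Eif2ak2 (chr17:78882543-78882822, minus strand) and B2m (chr2:122147437-122147716, plus strand):
Ifitm3: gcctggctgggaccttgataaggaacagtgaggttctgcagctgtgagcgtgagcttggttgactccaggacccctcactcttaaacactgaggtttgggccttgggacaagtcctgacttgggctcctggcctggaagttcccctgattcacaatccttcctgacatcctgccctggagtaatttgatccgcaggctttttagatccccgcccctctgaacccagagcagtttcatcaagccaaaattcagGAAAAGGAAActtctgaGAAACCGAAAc
Eif2ak2: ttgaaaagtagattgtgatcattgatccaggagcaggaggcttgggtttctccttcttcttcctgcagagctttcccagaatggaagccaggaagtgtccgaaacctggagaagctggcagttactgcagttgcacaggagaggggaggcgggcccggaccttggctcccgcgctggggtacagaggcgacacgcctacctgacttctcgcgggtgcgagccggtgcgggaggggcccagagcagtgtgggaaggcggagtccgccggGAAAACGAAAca
B2m: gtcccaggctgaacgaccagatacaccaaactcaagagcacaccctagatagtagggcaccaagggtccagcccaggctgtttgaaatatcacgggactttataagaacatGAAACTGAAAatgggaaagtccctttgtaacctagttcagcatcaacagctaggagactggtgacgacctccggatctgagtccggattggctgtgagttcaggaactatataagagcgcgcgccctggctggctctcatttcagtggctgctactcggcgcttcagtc
In Ifitm3 the motif occurs again within the window and both copies lie just after the annotated start, as does that of Eif2ak2, whereas that of B2m lies upstream. Ifitm3 was at 20.3, 19.5, 16.2, 16.5 and 17.4 CPM with AAV-shA4 and 11.7, 11.4, 12.6 and 14.8 CPM in WT (log2 fold change 0.51, SE 0.12, adjusted p = 0.00814 by edgeR). B2m was at 134, 152, 128, 142 and 133 CPM against 101, 113, 103 and 95.4 CPM. A match of letters is not a measured binding site. Ifitm3 and B2m were chosen for these windows after their values were seen.

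Of 16 genes that respond to glucocorticoids 4 rose and 0 fell, with a median of 0.31, where 1.18% of all genes tested rose. They are Plin4, Hif3a, an inhibitor of hypoxia signalling (19 CPM (± 2.51, SD of 5 mice) against 11.2 CPM (± 3.87, SD of 4 mice)), Sult1a1, a sulphotransferase (1.46-fold), and Fkbp5, a co-chaperone of the glucocorticoid receptor (1.41-fold, adjusted p = 0.0147 by edgeR). With AAV-shSCR 2 of the 16 were called higher against the same WT mice, with a median of 0.080. Between the SCA7 groups the median was 0.18, and the smallest adjusted p was 0.502 by edgeR. At an unadjusted p under 0.05, which 8.22% of all genes reached, 4 were higher with AAV-shA4 and 0 lower. The mean over the list was highest in AAV-shA4 replicate 2 (0.66), which also had the lowest mean of the choroid plexus genes (−3.56), and without WT replicate 3 the number called fell to 2, since Hif3a (0.55) and Fkbp5 (0.46) were lost. Hif3a was also lost without AAV-shA4 replicate 5 (0.69) or WT replicate 2 (0.74). Of the 22 vascular genes Vwf, the von Willebrand factor of endothelial cells, rose 1.77-fold (adjusted p = 0.000259) and Emcn, an endothelial sialomucin, rose 1.4-fold, whereas Cldn5, a tight junction protein of the blood-brain barrier, fell from 32.1 CPM (± 4.31, SD of 4 mice) to 20.7 CPM (± 1.16, SD of 5 mice). The median of the vascular list was 0.04. Of 18 immediate early genes, which report recent neuronal activity, Egr4, Fosb and Nr4a1 fell (median −0.20), and 1 of these calls was left without AAV-shA4 replicate 2 or 5 or WT replicate 1 or 4.

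In lists that relate to protein handling and to the disease gene, few genes were called. For comparison, 2.27% of all genes tested fell and 1.18% rose. Among 23 heat shock chaperones Hspa1b, an inducible Hsp70, fell (−0.43, median −0.045), among 24 genes of the unfolded protein response 1 fell, Sdf2l1 (−0.57, adjusted p = 0.0484 by edgeR, median −0.18), and of 18 p53 targets Fas rose (median 0.076). Sdf2l1 was lost without any of AAV-shA4 replicates 2 (−0.48), 4 (−0.47) and 5 (−0.60) and WT replicates 2 (−0.52), 3 (−0.54) and 4 (−0.56), and Fas without AAV-shA4 replicate 1 (0.41) or WT replicate 2 (0.48), 3 (0.49) or 4 (0.52). Of 79 nuclear genes of the respiratory chain 2 fell, a share near that of all genes tested (median 0.011). They are Cox6a2 (−1.22) and Cox6b2 (−0.69), tissue-specific subunits of cytochrome c oxidase. Cox6a2 had low levels, with means of 0.686 CPM with AAV-shA4 and 1.60 CPM in WT. Of 25 genes of motile cilia Dnah11, a dynein heavy chain, fell (−0.50), and of 6 clock genes of the phase opposite to Per 1 fell. In edgeR's test no gene was called among 26 subunits of SAGA (5 with an unadjusted p under 0.05), 9 polyglutamine disease genes (4), 38 proteasome genes (7), 24 genes of cholesterol synthesis (6), 11 clock genes peaking with Per (2), 16 genes of meningeal fibroblasts (4), 7 mitochondrially encoded genes (0) and 6 blood genes (0). That unadjusted p was reached by 26.6% of all genes tested, a share that only the polyglutamine disease genes clearly exceeded. In the lists without a call by edgeR, limma-voom called no gene and DESeq2 called 1, Psmb8, an interferon-inducible subunit of the proteasome (0.56 and an adjusted p of 0.0591 by edgeR). Of 18 RGS genes Rgs8 fell and Rgs17, another regulator of G protein signalling, rose (1.38-fold) with 1 WT mouse inside the range of the treated mice.

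The mean over a list in each mouse shows how even these changes were among the treated mice. Relative to the WT mean, the PC list lay at −0.52 to −0.39 (log2) in the 5 AAV-shA4-treated mice and −0.041 to 0.081 in the 4 WT mice, without overlap. The list of glutamate to IP3 receptor signalling lay at −0.46 to −0.33 against −0.06 to 0.069 and the oligodendrocyte list at −0.29 to −0.13 against −0.093 to 0.11, also without overlap. The MHC class I list was above all WT mice in each treated mouse, at 0.33 to 0.72 against −0.14 to 0.11. The interferon list was at 0.16 to 0.73 against −0.30 to 0.26, and AAV-shA4 replicate 4 was below the highest WT mouse. In AAV-shSCR-treated mice the PC list lay at −0.57 to −0.43 and the interferon list at 0.28 to 0.79.

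**Figure D4:**
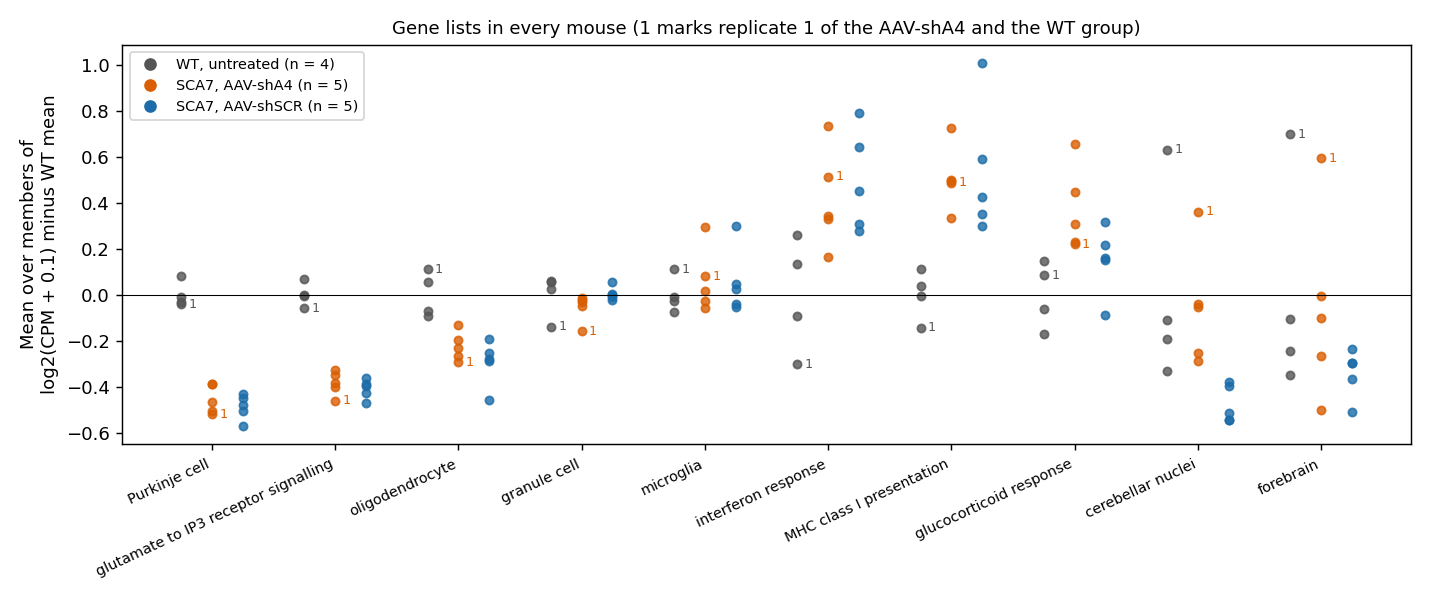
Mean over the tested genes of 10 lists of log2(CPM + 0.1) minus the WT mean, with a point for each of the 4 WT, 5 AAV-shA4-treated and 5 AAV-shSCR-treated mice. The PC list lies at −0.52 to −0.39 in every AAV-shA4-treated mouse, and the label 1 marks the AAV-shA4 and the WT library that lie highest together in the lists of the cerebellar nuclei and the forebrain.

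The SCA7 groups were then compared with each other to ask which of the remaining changes differed with the shRNA. With edgeR no gene passed the adjusted p between AAV-shA4 and AAV-shSCR, the smallest being 0.194, and 1222 genes (8.22%) had an unadjusted p under 0.05. With limma-voom the number was 0 as well, and with DESeq2 24 genes passed the adjusted p and 5 also the fold limit. These 5, all higher with AAV-shA4, were C1ql3, a synaptic complement-like ligand (log2 fold change 0.55, adjusted p = 0.00135 with DESeq2 and 0.301 with edgeR), Hapln1, a link protein of perineuronal nets (0.82), Mcf2, an exchange factor of small GTPases (0.69), Cacng3, a partner of AMPA receptors (0.61), and Amigo2, an adhesion protein (0.41), and they were named after their values were seen. Against WT mice 396 genes (2.66%) were called lower with AAV-shSCR, among them 28 of the 40 PC genes (median −0.48). In the PC list none of the 40 genes had an unadjusted p under 0.05 between the SCA7 groups, with a median difference of 0.036, which does not show that the groups are equal. Without AAV-shA4 replicate 1, a choice made after seeing the data, 7 of the 40 were higher with AAV-shA4 at that p, with a median of 0.058. In the cerebellar nuclei list, in which AAV-shA4 replicate 1 stood apart, 8 of 12 genes were higher with AAV-shA4 at an unadjusted p under 0.05, with a median of 0.27, and 5 without that library, with a median of 0.29. The median of the forebrain list was 0.33 with it and 0.12 without it. For the fit without AAV-shA4 replicate 1 the share of all genes under that p is not given here. Its counts of 7 and 5 therefore have no background beside them, and 8.22% belongs to the fit with all libraries.

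Among the genes called against WT mice, the smallest p-values between the SCA7 groups belonged to a set that includes Scn4b, Zap70, Fas and Mcam, each of these 4 with an adjusted p of 0.325 by edgeR. Scn4b was at 101.7, 107, 110.0, 104 and 113 CPM with AAV-shA4, 92.5, 85.5, 97.6, 80.4 and 83.5 CPM with AAV-shSCR and 160.5, 131, 138 and 131 CPM in WT. Its level with AAV-shA4 lay between the others (log2 difference between the SCA7 groups 0.28, SE 0.059). Zap70 and Fas, the receptor of Fas ligand, went the other way, since their AAV-shSCR level was near that of the WT mice. Zap70 was at 1.45 CPM (± 0.272, SD of 5 mice) with AAV-shA4, 0.855 CPM (± 0.165, SD of 5 mice) with AAV-shSCR and 0.722 CPM (± 0.087, SD of 4 mice) in the WT mice, and Fas at 2.27 CPM (± 0.425, SD of 5 mice), 1.48 CPM (± 0.17, SD of 5 mice) and 1.58 CPM (± 0.206, SD of 4 mice). Mcam, an adhesion molecule of vessels, was lowest with AAV-shA4, at 37.7 CPM (± 2.53, SD of 5 mice) against 44.3 CPM (± 3.35, SD of 5 mice) with AAV-shSCR and 53.2 CPM (± 2.5, SD of 4 mice) in the WT mice.

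Because the SCA7 allele is a knock-in on chromosome 14, genes near Atxn7 were counted separately. Within 10 Mb of Atxn7 on either side, 7 of 75 tested genes were called (9.33%), against 17 of 446 genes (3.81%) on the rest of the chromosome and 3.45% over all genes. The nearest was Il3ra, 0.239 Mb from Atxn7 (GRCm38 chr14:14346275-14356011), at 2.88, 3.82, 2.81, 2.82 and 3.4 CPM with AAV-shA4 and 1.63, 1.66, 1.24 and 1.17 CPM in WT. Its mean with AAV-shSCR was 3.3 CPM (± 0.545, SD of 5 mice), and every SCA7 mouse of both groups was above every WT mouse. Synpr, which encodes the synaptic vesicle protein synaptoporin, lies 0.345 Mb away (chr14:13284780-13616340) and was at 92.2, 97.9, 95.1, 98.4 and 92.2 CPM against 66.4, 67.2, 61.8 and 71.6 CPM. It rose 1.43-fold (adjusted p = 2.47e-07 by edgeR) with a mean of 93.8 CPM (± 3.65, SD of 5 mice) with AAV-shSCR. Fhit, a dinucleoside hydrolase 2.80 Mb away, rose 1.6-fold, and Kcnma1 lies 9.18 Mb away. The other 3 called genes of this region are predicted genes without a name (Gm8237, Gm3636 and Gm10406) of a family of similar copies, with means under 1 CPM in every group, and their values are uncertain. In this region 8 genes were called with AAV-shSCR against the same WT mice, where 4.02% of all genes were.

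**Figure D5:**
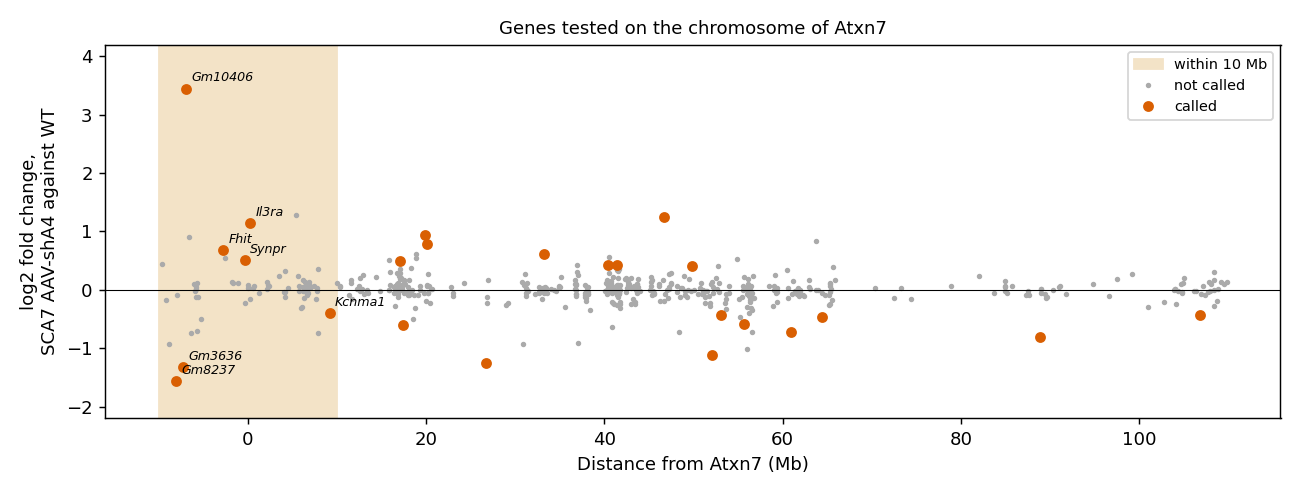
Log2 fold change between AAV-shA4-treated SCA7 mice and WT mice of the tested genes on chromosome 14, by their distance from Atxn7 in Mb (a point for each gene, called genes in orange). The shaded band covers 10 Mb on either side, where 7 of 75 genes were called, and names them.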

How the data were processed

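The RNA of 1 cerebellum per mouse was sequenced as stranded mRNA libraries from 200 ng of total RNA with single reads of 50 bases. According to the submitters' processing notes and the methods, the authors trimmed reads with cutadapt 1.10, removed ribosomal reads with Bowtie2 2.2.8, mapped the others with STAR 2.5.3a to the mouse build mm10 and counted them with HTSeq 0.6.1p1 on Ensembl release 102. How the counting treated strand is not given in the sources used here, so reads of overlapping genes may be shared. The deposited values are the authors' raw counts per gene, without normalization, for 55401 genes. Symbols, types and positions came from GENCODE M21 (GRCm38), which holds 55141 of them, and the 21897 protein-coding genes were kept. CPM and fold changes were computed from the counts.

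Groups were taken from the sample labels. The 14 late libraries were fitted together in R 4.3.3 with edgeR 4.0.16 (TMM, filterByExpr with minimum count 10 and minimum total 15, quasi-likelihood test) and the 6 early libraries likewise, with Benjamini-Hochberg adjustment over all genes tested. The fits were tested on simulated data. DESeq2 1.42.0 and voom of limma 3.58.1 were alternatives, beside RLE size factors, other filters, robust estimation, the 9 libraries alone, all annotated genes, no fold limit, a replicate block and each mouse left out. The SE is the log2 fold change divided by the square root of the F statistic. Levels in lists used log2(CPM + 0.1).

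The comparison and the gene lists, written from general knowledge, were chosen with earlier results of these data known. The genes named are Atxn7, Th, Gfap and Irf7, the 8 PC genes of the study, in each direction the 10 called genes with the largest change among those without overlap and with at least 1 CPM in the higher group, the 4 genes of each list with the smallest adjusted p, and the 5 called genes with the smallest adjusted p between the SCA7 groups. A named gene took the place of a predicted one. Other names serve as examples of a list and were chosen after their values were seen. Some genes that this rule or a list would name are not reported here. Pairs of mice of a group differed by more than counting noise (chi-squared per degree of freedom 6.43 to 26.1), and edgeR's common biological coefficient of variation came to 0.079.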

Additional observations from a re-analysis of the deposited data

Results flagged for a closer look

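For 188 named genes the mice of each group were checked for a single value far from the others (Dixon's test at the 95% level). It marked 22 of 376 groups, and chance marks about 1 in 20. Among the AAV-shA4-treated mice 1 mouse was high, beside its nearest neighbour, in Htr1b (22.9 against 19.9 CPM), Kcnh3 (1.07 against 0.544 CPM), Rgs7bp (433 against 387 CPM), Rgs9 (7.71 against 5.79 CPM), Dnajb2 (118 against 113 CPM), Lgals3 (7.11 against 4.5 CPM) and Atxn2 (129.7 against 122 CPM). It was low in Kcnip1 (49.6 against 55.2 CPM), Gabrb1 (66.5 against 79.2 CPM), Chn2 (686 against 773 CPM), Cryab (72.3 against 84.7 CPM) and Fa2h (31.9 against 36.1 CPM). Among the WT mice 1 mouse was high in Rgs17 (54.3 against 38.4 CPM), Ppp1r1b (253 against 221 CPM), Laptm5 (20.3 against 17.1 CPM) and Shank2 (392.1 against 348 CPM). It was low in Lck (0.187 against 0.295 CPM), Grm2 (30.2 against 32.8 CPM), Sult1a1 (5.62 against 7.02 CPM), Zic2 (246 against 285 CPM), Dnajb2 (128 against 131 CPM) and Scn11a (0.0519 against 0.187 CPM). Among these genes Htr1b, Kcnh3, Rgs17, Grm2, Ppp1r1b, Sult1a1, Lgals3, Fa2h and Shank2 were called against WT mice.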

How the results depend on the processing

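Under other normalization, filters, tools and gene sets, the number of called genes ranged from 462 to 642, with 148 to 232 higher and 314 to 410 lower, and that of PC genes called lower from 26 to 27. Without a fold limit 2018 genes passed, 813 higher and 1205 lower. With 1 mouse left out the counts were 452 to 572, 140 to 219 and 303 to 353, and 22 to 29 PC genes were lower. The number of interferon genes called higher ran from 7 to 15. The replicate numbers did not pair the mice, since the deviations of same-numbered AAV-shA4 and WT mice correlated at 0.46, 0.24, 0.026 and −0.04, and only number 1 matched best with its own number. With a replicate block 488 genes were called, 174 higher and 314 lower, with 26 PC genes lower. Leaving out AAV-shA4 and WT replicate 1 together, a choice made after seeing the data, gave 532 called genes and 27 PC genes. Of 82 called named genes 77 were tested in all 20 alternatives, and 63 of these kept the call in all. A further 4 kept it in each alternative that tested them, and 15 lost it in at least 1, the cause of which was not tested. Fosb, Nr4a1 and Sdf2l1 lost it most often. With 5 and 4 mice, changes near the fold limit are called in some fits and not in others.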

Other observations

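Among the 414 genes called against WT mice that belong to no list, the following were chosen after their values were seen, and log2 fold changes with AAV-shA4 are given in parentheses. They stand for no group. Among those that fell were Cck (−0.69), the precursor of cholecystokinin, Crhr1 (−0.63), the receptor of corticotropin-releasing hormone, and Grm4 (−0.82), a presynaptic glutamate receptor of parallel fibres. Cck was at 18.6 CPM (± 2.81, SD of 5 mice) with AAV-shA4 and 29.9 CPM (± 1.7, SD of 4 mice) in WT mice. Prkg1, the cGMP-dependent kinase of PCs, fell by 0.56 on the log2 scale, and decreases were also seen in the cytokine Il33 (−0.92), the growth factor gene Gdf11 (−0.73) and the binding protein Igfbp5 (−0.92). Erbb3, a neuregulin receptor, fell by 0.60 and Klk6, a secreted protease, by 0.78 on that scale. Among those that rose were the interferon-inducible genes Mndal (1.00), Ifi203 (0.84), Irgm1 (0.44), Uba7 (0.44), Trim21 (0.41) and Psme1 (0.42), and Mndal and Ifi203 are of a family of similar copies, so their values are uncertain. Others that rose were Ntf3 (0.75), the neurotrophin NT-3, Fstl5 (0.81), a follistatin-like protein, and Sox4 (0.56), a transcription factor. Ntf3 was at 7.32 CPM (± 1.02, SD of 5 mice) with AAV-shA4 and 4.36 CPM (± 0.651, SD of 4 mice) in WT mice.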
